A study of Mus musculus with 12 samples.

Results

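Tight junctions seal the space between neighbouring epithelial cells, and in the liver they separate the bile canaliculus from the blood side of the hepatocyte. The transcripts of 9 genes of this junction were followed through acetaminophen injury, in mice with and without 3-phenylpropionic acid. They were selected by name, with their values in these libraries known: 5 claudins (Cldn1, Cldn2, Cldn3, Cldn12 and Cldn14), occludin (Ocln), the scaffold proteins ZO-1 (Tjp1) and cingulin (Cgn), and the adhesion molecule JAM-A (F11r). They are 9 of the 24340 gene rows of the expression table and all 9 belong to the 10047 genes tested. Each had at least 1 FPKM (sequenced fragments relative to transcript length and library total) in each of the 12 libraries, so none passed the filter on low values through 1 group only.

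The libraries hold poly(A)-selected liver RNA of C57BL/6 mice from Taconic and form 4 groups of 3. One arm, called control here (CTL in the labels), drank plain water. The other received 3-phenylpropionic acid (PPA), a small aromatic acid also made by gut bacteria, in its drinking water for 4 weeks. All mice were fasted for 16 h, and acetaminophen (APAP), an analgesic that in overdose kills the hepatocytes around the central vein, was given intraperitoneally at 300 mg/kg. Collection at 0 h or 6 h after APAP gives the groups control 0 h, PPA 0 h, control 6 h and PPA 6 h. No group spent 6 h without APAP, so the effect of APAP cannot be told apart from 6 more hours of fasting or from the hour of the day. The labels give neither age nor sex, do not say whether the 0 h mice were injected, and do not state that each library comes from its own mouse. The p-values therefore reflect the spread between libraries, which may be technical. In whole liver, fewer cells of a type and less RNA per cell cannot be told apart.

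Claudins are small membrane proteins whose outer loops pair between cells. Some, such as claudin-1 and claudin-3, tighten the seal, while claudin-2 forms a channel for small cations and water. Occludin, a membrane protein of its own family, and JAM-A, an immunoglobulin-like adhesion molecule, sit in the same strands. ZO-1 and cingulin lie under the membrane and tie the strands to actin and myosin. In mouse liver, claudins are made by hepatocytes and by the bile duct epithelium, and in rat liver claudin-2 has been described as graded along the lobule.

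Promoter sequences are shown for 4 members: Cldn1, which was lower after APAP in control mice and higher in PPA mice, Cldn3, with the largest decrease, Cldn14, with the largest increase, and F11r, which rose in both arms and carries the most motif matches. Each is the 250 bases before the RefSeq start on GRCm38.p6, written 5′ to 3′ on the gene's own strand. Capitals mark matches on either strand to any of 4 motifs. The TATA box was searched as TATAAA. The site of AP-1, a stress-responsive factor, was searched as TGANTCA. The E-box that Snail repressors bind was searched as CAGGTG, and the CCAAT box by those letters. Of Cldn14, which has 3 windows, the one at the outermost start is shown.
Cldn1, chr16:26371840-26372089, minus strand: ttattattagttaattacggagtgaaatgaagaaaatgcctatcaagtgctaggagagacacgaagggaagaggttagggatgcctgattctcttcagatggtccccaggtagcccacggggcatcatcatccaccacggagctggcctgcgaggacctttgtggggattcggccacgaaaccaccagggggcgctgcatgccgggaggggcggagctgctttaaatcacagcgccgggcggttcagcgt
Cldn3, chr5:134985964-134986213, plus strand: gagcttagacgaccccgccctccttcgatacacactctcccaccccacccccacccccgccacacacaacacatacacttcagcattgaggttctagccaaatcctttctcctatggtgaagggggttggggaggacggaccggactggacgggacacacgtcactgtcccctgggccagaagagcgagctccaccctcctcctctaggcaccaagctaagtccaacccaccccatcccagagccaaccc
Cldn14, chr16:94008838-94009087, minus strand: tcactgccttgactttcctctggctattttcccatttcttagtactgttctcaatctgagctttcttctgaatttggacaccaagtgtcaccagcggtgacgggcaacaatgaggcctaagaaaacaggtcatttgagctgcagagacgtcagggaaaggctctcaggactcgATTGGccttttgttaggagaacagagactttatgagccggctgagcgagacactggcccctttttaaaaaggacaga
F11r, chr1:171437311-171437560, plus strand: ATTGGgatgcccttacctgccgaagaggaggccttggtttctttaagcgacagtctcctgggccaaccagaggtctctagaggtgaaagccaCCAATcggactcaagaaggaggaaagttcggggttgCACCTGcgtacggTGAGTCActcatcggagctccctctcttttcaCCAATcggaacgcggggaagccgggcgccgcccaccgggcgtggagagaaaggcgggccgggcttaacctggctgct

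All 9 members had at least 1 promoter window, 14 in all, and 6 of them held at least 1 of these motifs in some window. The windows of Cldn1, Cldn3 and Tjp1 held none. The AP-1 letters were found in F11r alone, starting 109 bases before its start, and they occur in 6.75% of the 32851 promoter windows of the same length. F11r also held CAGGTG, at 122 bases, and CCAAT at 250, 158 and 77 bases. CAGGTG was present in 17.2% of all windows and among the members also in 1 inner window each of Cldn14 (31 bases) and Ocln (213 and 68 bases). CCAAT, present in 33.8% of all windows, was also found in Cldn14, Cldn12, Ocln and Cgn. TATAAA, present in 12.4%, was found in Cldn2 only, at 35 bases. No 2 matches overlapped. A match is a description of these letters, and the expression table has 1 row per gene and so does not say which start was used.

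Before APAP, control livers held far more Cldn3 than any other member. Its FPKM, which is scaled to transcript length and can be set between genes, was 215 ± 12 (SD, n = 3). F11r followed with 25.9 ± 1.75 and Cldn2 with 16.0 ± 0.658. Cldn12 (11.2 ± 0.427), Cldn1 (10.8 ± 0.697) and Cldn14 (9.40 ± 1.43) formed a middle set, in which neighbouring genes overlapped between libraries. Cgn (4.54 ± 0.436), Ocln (3.13 ± 0.0722) and Tjp1 (1.90 ± 0.306) were the lowest, and their ranges did not overlap. Fragments per library were estimated from the step size of the FPKM values and the longest RefSeq transcript of each gene, an upper estimate. At 0 h they were about 26 to 74 for Ocln, 44 to 72 for Cldn14 and 45 to 75 for Tjp1. Those of Cldn3 were 826 to 1436.

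**Figure D1:**
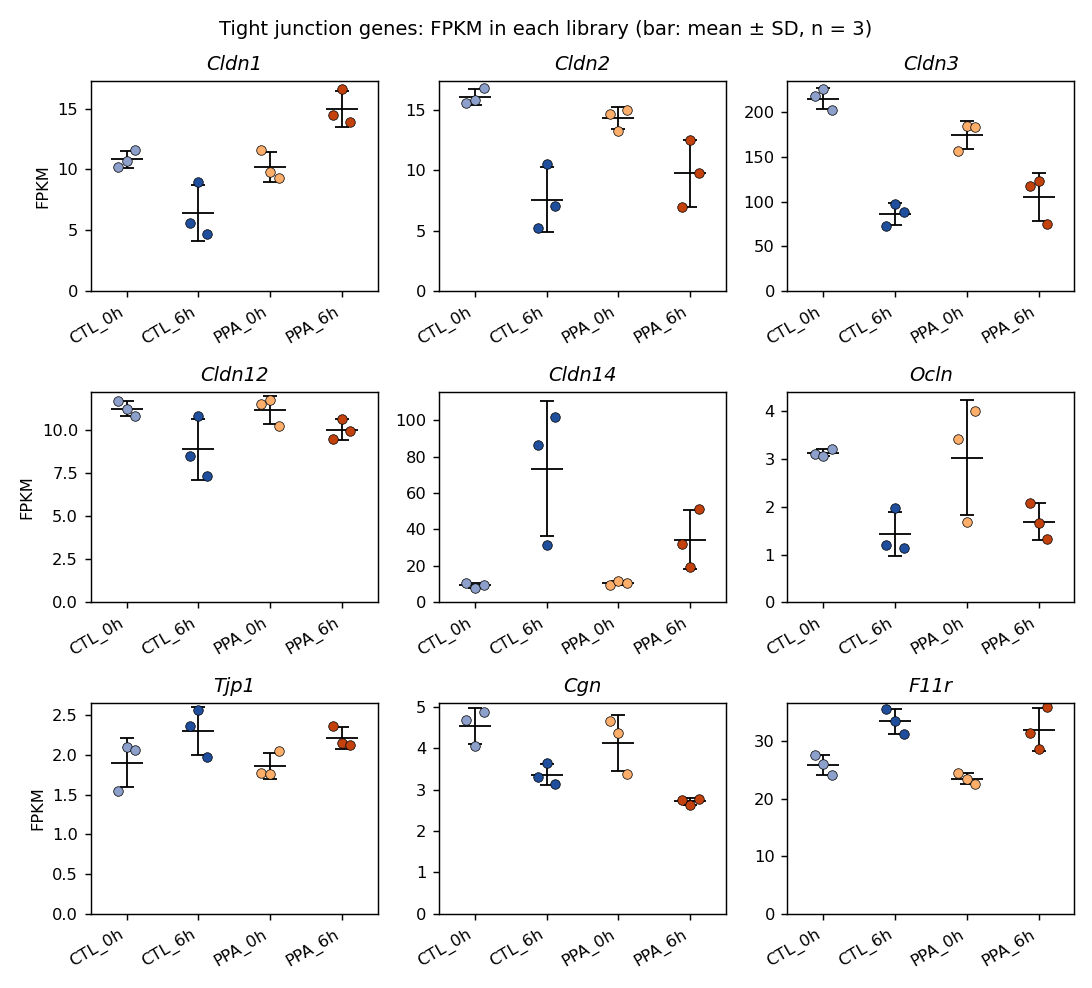
FPKM (y axis, linear, from 0) of each of the 9 members in every library, by group on the x axis (CTL is control). Points are libraries and bars are means ± SD of 3 libraries. Cldn1 is low in control 6 h and high in PPA 6 h, Cldn14 is high in both 6 h groups, and Cldn2 and Cldn3 are lower at 6 h.

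The estimated depth was 3250000 to 5060000 fragments in the 0 h libraries and 6970000 to 10100000 in the 6 h libraries, so depth and time cannot be told apart. A pair of libraries of the control 6 h group stand apart. Control 6 h replicate 3 had the values nearest to the 0 h groups for several members, and a summed level of 5 neutrophil genes of 11.3 FPKM, against 44.9 and 54.0 in the other control 6 h libraries. Control 6 h replicate 4 held 135 FPKM of 12 skeletal muscle genes, against at most 1.78 in any other library. Results on the members that depend on either are given with and without it. Values of single libraries are listed in order of replicate number, which is 1, 3 and 4 in control 0 h, 2, 3 and 4 in control 6 h, 2, 4 and 5 in PPA 0 h and 1, 2 and 5 in PPA 6 h.

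Cldn1, a barrier claudin that in humans is also an entry factor of hepatitis C virus, is located on chromosome 16 (26356642 to 26371841, minus strand, GRCm38). It was chosen for its APAP response, so its values are a description and no test is given. Control 0 h libraries had 10.2, 10.7 and 11.6 FPKM, and control 6 h libraries had 5.61, 8.99 and 4.67. PPA 0 h libraries had 11.6, 9.77 and 9.30 FPKM, and PPA 6 h libraries had 14.4, 16.6 and 13.9. The 0 h groups overlapped. Every control 6 h library lay below, and every PPA 6 h library above, all 6 libraries of 0 h. At 6 h the arms did not overlap, which 6.59% of tested genes also showed with PPA above control.

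On the log2(FPKM + 1) scale, the Cldn1 level at 6 h minus 0 h was -0.71 ± 0.18 (SE) in control mice and 0.51 ± 0.18 in PPA mice. The second difference minus the first was 1.22 ± 0.25. Between the arms, PPA minus control was -0.08 ± 0.18 at 0 h and 1.14 ± 0.18 at 6 h. The mean FPKM of PPA 6 h was 2.33 times that of control 6 h. Without control 6 h replicate 3, whose 8.99 FPKM is the highest of its group, the difference in control mice was -0.95, and without replicate 4 it was -0.54. Among all tested genes, 13 (0.129%) had this arrangement, with 6 h wholly below 0 h in control mice and wholly above it in PPA mice, and 19 (0.189%) had the reverse. As Cldn1 was picked for this arrangement, nothing is read from that share.

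Cldn14, a claudin known for limiting the passage of cations in the inner ear and kidney, showed the largest change of the members. It lies on the same chromosome (93919031 to 94008837, minus strand). Its FPKM was 10.9, 7.98 and 9.37 in control 0 h and 86.5, 31.5 and 102 in control 6 h. It was 9.42, 11.6 and 10.7 in PPA 0 h and 32.1, 19.4 and 51.5 in PPA 6 h. In both arms every 6 h library lay above every 0 h library, and the 6 h libraries differed widely among themselves.

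Cldn14 rose by 2.68 ± 0.38 on the log2 scale in control mice (adjusted p = 0.000328, limma) and by 1.51 ± 0.38 in PPA mice (adjusted p = 0.0117, limma). The mean FPKM at 6 h was 7.79 and 3.24 times that at 0 h. These are ratios of plain means, which differ from the log2 changes where libraries spread widely. Across the alternatives of the fit the rise ranged from 2.37 to 3.2 in control mice and from 1.17 to 1.85 in PPA mice, and it was called in each. At 6 h the PPA mean was 34.3 ± 16.2 FPKM and the control mean 73.3 ± 37.0, with overlapping libraries, and the difference of -1.02 ± 0.38 was not called (adjusted p = 0.26, limma). Without control 6 h replicate 3, at 31.5 FPKM the lowest of its group, that difference was -1.53 and was called (adjusted p = 0.0153, limma). Within its intron the annotation holds a further sense transcript, Gm49618.

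Cldn3, a sealing claudin and the most abundant of the family here, fell in both arms. Its gene is on chromosome 5 (134986214 to 134987472, plus strand). Control livers went from 218, 225 and 202 FPKM at 0 h to 73.4, 97.5 and 88.9 at 6 h. PPA livers went from 156, 184 and 183 FPKM to 118, 124 and 74.7. The 6 h libraries lay below the 0 h libraries in both arms, without overlap.

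The log2 change of Cldn3 was -1.31 ± 0.18 in control mice (adjusted p = 0.000216, limma) and -0.75 ± 0.18 in PPA mice (adjusted p = 0.00740, limma). Its mean FPKM at 6 h was 0.403 and 0.604 times that at 0 h. Both log2 changes were called under every alternative tried. The PPA arm also started lower: all 3 PPA 0 h libraries were below all 3 control 0 h libraries, as in 7.95% of tested genes, and the difference of -0.30 ± 0.18 was not called (adjusted p = 0.768, limma). The difference between the arms in the APAP change was 0.56 ± 0.25 (95% interval 0.02 to 1.10), with an unadjusted p of 0.0428 and an adjusted p of 0.534 (limma). The antisense gene Wbscr25 overlaps the end of Cldn3, and strand use in the counting is not known here.

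Cldn2, the cation and water channel of the family, lies on chromosome X (139800828 to 139811386, plus strand) and fell in control mice. Its FPKM was 15.5, 15.8 and 16.8 in control 0 h and 5.18, 10.5 and 7.03 in control 6 h, a change of -1.04 ± 0.21 on the log2 scale (adjusted p = 0.00391, limma). In PPA mice it was 14.6, 13.2 and 15.0 at 0 h and 6.97, 12.5 and 9.74 at 6 h. All 3 PPA libraries at 0 h lay below all 3 control libraries, a difference of -0.16 ± 0.21 that was not called (adjusted p = 0.896, limma). The PPA groups at 0 h and 6 h did not overlap either, but the change of -0.54 ± 0.21 was not called (adjusted p = 0.0761, limma). It was called without PPA 6 h replicate 2, the highest of its group, at -0.72 (adjusted p = 0.0315, limma), and also without control 6 h replicate 3, which enters only through the shared spread (adjusted p = 0.0324, limma). The changes in the 2 arms differed by 0.49 ± 0.30 (95% interval -0.16 to 1.15), which was not called (adjusted p = 0.634, limma).

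Cldn12, a claudin without the usual C-terminal tail that binds ZO proteins, differed least of the 5. It lies on chromosome 5 (5489537 to 5514958, minus strand). Control livers had 11.7, 11.2 and 10.8 FPKM at 0 h and 8.45, 10.8 and 7.33 at 6 h. PPA livers had 11.5, 11.7 and 10.2 FPKM at 0 h and 9.44, 10.6 and 9.90 at 6 h. The groups overlapped in both arms, and neither the control change (-0.32 ± 0.13, adjusted p = 0.0838, limma) nor the PPA change (-0.14 ± 0.13, adjusted p = 0.449, limma) was called. Without control 6 h replicate 3, again the library closest to 0 h, the control change was -0.46 and was called (adjusted p = 0.0142, limma).

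Among the other membrane proteins, Ocln was lower and F11r higher at 6 h. Ocln, on chromosome 13 (100496507 to 100552718, minus strand), had 3.11, 3.07 and 3.21 FPKM in control 0 h and 1.21, 1.97 and 1.13 in control 6 h, with no overlap. This change of -0.78 ± 0.22 was called (adjusted p = 0.0181, limma), but not without control 6 h replicate 2 (adjusted p = 0.0659, limma) or replicate 4 (adjusted p = 0.0614, limma). In PPA mice Ocln was 3.42, 1.68 and 4.00 FPKM at 0 h and 2.09, 1.66 and 1.33 at 6 h, and these groups overlapped through PPA 0 h replicate 4. That difference of -0.54 ± 0.22 was not called (adjusted p = 0.0762, limma). Without this replicate it was -0.81 and was called (adjusted p = 0.00860, limma).

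F11r, on chromosome 1 (171437535 to 171464603, plus strand), encodes JAM-A, which endothelial cells, platelets and leukocytes also carry. Its FPKM was 27.6, 26.1 and 24.1 in control 0 h and 35.7, 33.5 and 31.3 in control 6 h. It was 24.4, 23.4 and 22.5 in PPA 0 h and 31.5, 28.5 and 35.9 in PPA 6 h. The 6 h libraries lay above the 0 h libraries in both arms. F11r rose by 0.36 ± 0.11 in control mice (adjusted p = 0.0308, limma) and by 0.43 ± 0.11 in PPA mice (adjusted p = 0.0127, limma). The control call was lost without any 1 of 4 libraries (control 0 h replicates 3 and 4, control 6 h replicates 2 and 3), with adjusted p up to 0.114 (limma). It was also lost under upper-quartile scaling (adjusted p = 0.0708, limma) and when only the groups compared were fitted (adjusted p = 0.0731, limma). The PPA call was lost without PPA 6 h replicate 5 (adjusted p = 0.0530, limma).

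Of the scaffold genes, Cgn fell in PPA mice and Tjp1 was not called anywhere. Cgn, on chromosome 3 (94760069 to 94786492, minus strand), had 4.69, 4.05 and 4.88 FPKM in control 0 h and 3.30, 3.66 and 3.14 in control 6 h. PPA livers had 4.66, 4.37 and 3.37 FPKM at 0 h and 2.75, 2.62 and 2.77 at 6 h. All 6 h libraries lay below all 0 h libraries of their arm. The change was -0.46 ± 0.13 in PPA mice (adjusted p = 0.0186, limma) and -0.34 ± 0.13 in control mice (adjusted p = 0.0660, limma), and these differed by -0.12 ± 0.18 (95% interval -0.51 to 0.28). The PPA call was lost without PPA 0 h replicate 2 or 4 or PPA 6 h replicate 1 or 2, with adjusted p from 0.0504 to 0.0757 (limma).

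Tjp1, on chromosome 7 (65296165 to 65527781, minus strand), had 1.55, 2.1 and 2.06 FPKM in control 0 h and 2.36, 2.56 and 1.97 in control 6 h. PPA livers had 1.77, 1.76 and 2.05 FPKM at 0 h and 2.37, 2.14 and 2.12 at 6 h. The log2 differences of 0.19 ± 0.13 in control mice (95% interval -0.09 to 0.46, adjusted p = 0.311, limma) and 0.17 ± 0.13 in PPA mice (95% interval -0.11 to 0.45, adjusted p = 0.358, limma) were not called. Its locus holds 3 further annotated features, Gm44794, Gm44795 and Gm44792.

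**Figure D2:**
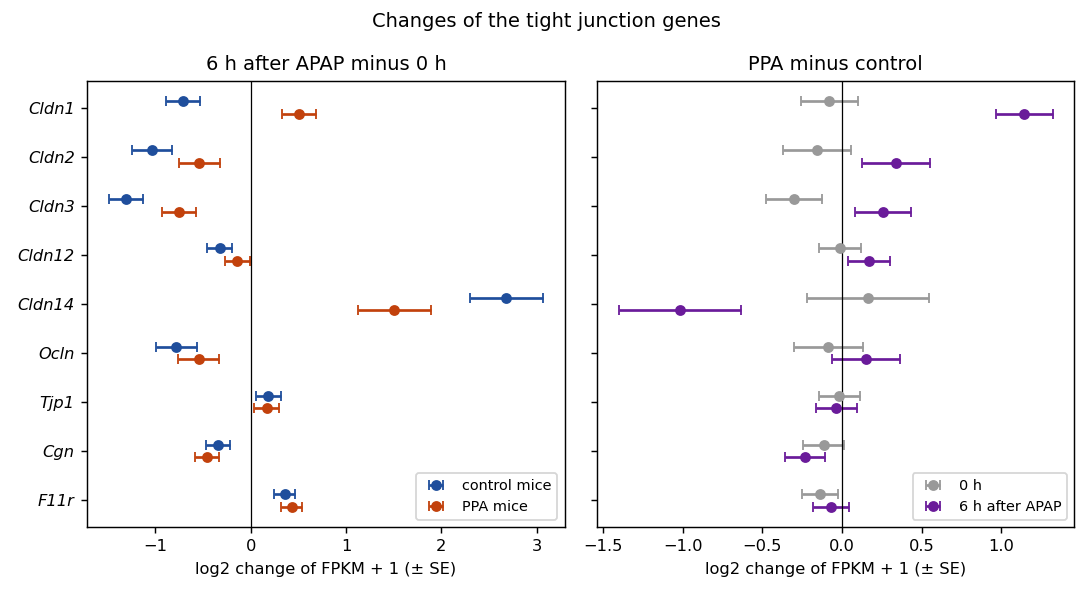
Log2 changes of FPKM + 1 (x axis) of the 9 members, as points with SE bars. The left panel gives 6 h after APAP minus 0 h in control and PPA mice, and the right panel PPA minus control at 0 h and at 6 h. Cldn14 moved most in both arms, and Cldn1 is the member whose points lie on opposite sides of 0 in the left panel (-0.71 and 0.51).

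Counting the 8 members other than Cldn1, 5 were called after APAP in control mice, where Cldn14 and F11r rose and Cldn2, Cldn3 and Ocln fell. Over all tested genes, 26.9% were called in this comparison, 15.1% higher and 11.8% lower. In PPA mice 4 of the 8 were called, where Cldn14 and F11r rose and Cldn3 and Cgn fell, beside 28.2% of all tested genes, 15% higher and 13.2% lower. Groups did not overlap for 2 members above and 4 below 0 h in control mice (21.1% and 18.6% of all tested genes), and for 3 above and 3 below in PPA mice (24.5% and 23.1%). The members were chosen with the APAP comparisons in view, so their counts are not read against these shares. The median log2 change of the 8 was -0.33 in control and -0.30 in PPA mice, and that of all tested genes was -0.01 and 0.00.

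Between the arms none of the 8 members was called, at 0 h, at 6 h or for the difference in the APAP change. At an unadjusted p under 0.05 there were 0, 1 (Cldn14) and 2 (Cldn3 and Cldn14) of them. The share of all tested genes at this unadjusted threshold was not counted, so no excess is read from these numbers. Over all tested genes limma called 0.0299% at 0 h, 0.139% at 6 h and 0.00995% for the difference in change, so 0 of 8 says little about these genes. The overall count for PPA at 6 h rested on single libraries: 14 genes were called with all of them, 813 without control 6 h replicate 3 and 384 without PPA 6 h replicate 5. The median of the 8 was -0.10 at 0 h and 0.06 at 6 h, with -0.01 and -0.02 over all tested genes. For the sealing and channel claudins the 6 h values of PPA minus control were 0.26 ± 0.18 for Cldn3 and 0.34 ± 0.21 for Cldn2, and for Cgn the value was -0.23 ± 0.13 with no overlap between the groups, as in 8.61% of tested genes. The 95% interval of the 6 h difference reached from -0.12 to 0.64 for Cldn3, from -0.31 to 0.17 for F11r and from -0.31 to 0.24 for Tjp1.

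The mixture of claudin transcripts differed between 0 h and 6 h libraries. Summed over 23 claudin rows, the level was 275 ± 12.9 FPKM in control 0 h, 231 ± 17.1 in PPA 0 h, 190 ± 28 in control 6 h and 182 ± 15.0 in PPA 6 h. Cldn3 made up 78.2% ± 1.23 and 75.4% ± 1.61 of this sum at 0 h (control and PPA). At 6 h its share was 46.3% ± 10.9 in control and 57.3% ± 10.4 in PPA mice. Cldn14 made up 3.42% ± 0.538 and 4.57% ± 0.165 at 0 h and 37.4% ± 15.9 and 19.4% ± 10.8 at 6 h. In control 6 h replicates 2 and 4 Cldn14 exceeded Cldn3 in FPKM, and in no other library did it do so. Cldn1 had 3.95% ± 0.442 and 4.46% ± 0.883 of the sum at 0 h, 3.53% ± 1.71 in control 6 h and 8.22% ± 0.501 in PPA 6 h. The shares are given as a description, as they follow from the values above.

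**Figure D3:**
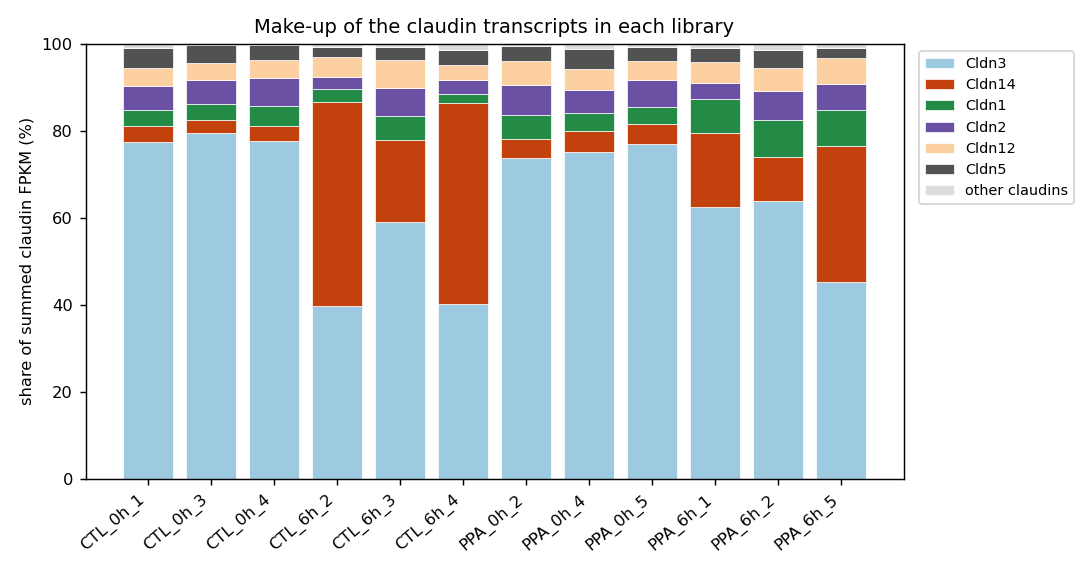
Share of the summed FPKM of 23 claudin rows (y axis, %) taken by each claudin in each of the 12 libraries (x axis, CTL is control). Cldn3 fills over 70% of every 0 h bar, and Cldn14 widens in the 6 h bars, most in control 6 h replicates 2 and 4.

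Most of the rest of the family was nearly silent. Of 20 other claudin and claudin-domain rows, 18 stayed under the filter on low values, and none of these passed 1.32 FPKM in any library. Cldn5, the claudin of endothelial cells, fell in control mice from 11.1 ± 1.79 to 5.67 ± 1.76 FPKM, a log2 change of -0.88 ± 0.23 (adjusted p = 0.0139, limma). The call was lost without control 0 h replicate 1 or control 6 h replicate 2 (adjusted p = 0.0501 and 0.0625, limma). In PPA mice Cldn5 had 8.87 ± 2.23 and 5.90 ± 1.78 FPKM and was not called. Other endothelial genes did not all move with it: of 9 sinusoidal endothelial markers, which include Cldn5 and Esam, 2 rose and 2 fell in control mice, and their summed level was 51.1 to 78.3 FPKM in control 0 h and 57.8 to 86.5 in control 6 h. Cldnd1, the second tested gene of this list, had 7.82 FPKM in control 0 h and 7.61 in control 6 h.

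Further junction genes were taken from 8 lists, 105 symbols of which 103 were in the table and 71 were tested. After APAP 16 rose and 7 fell in control mice, and 14 rose and 7 fell in PPA mice. The 23 and 21 calls among 71 genes stand beside 26.9% and 28.2% called over all tested genes, and the medians of the 71 were 0.02 and 0.05. Without each library in turn, 16 of the 23 and 15 of the 21 remained called. Between the arms 0 of the 71 were called by limma at 0 h, at 6 h or for the difference in change. At an unadjusted p under 0.05 there were 4, 11 and 9, with no share of all tested genes counted at that threshold, so no excess is read from them. Without control 6 h replicate 3, 9 of the 71 were called at 6 h, and without PPA 6 h replicate 5, 5 were.

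Of 8 tested membrane proteins of the tight junction, 3 rose in control mice and 1 in PPA mice, and none fell. Cxadr, the coxsackievirus and adenovirus receptor, went from 6.25 ± 0.572 to 24.7 ± 2.51 FPKM without PPA (1.82 ± 0.13 on the log2 scale, adjusted p = 1.34e-06, limma). In PPA mice it went from 5.26 ± 0.669 to 23.1 ± 3.36 FPKM (1.94 ± 0.13, adjusted p = 6.80e-07, limma). Esam, an adhesion molecule of endothelial cells, rose in control mice from 4.20 ± 1.62 to 12.8 ± 4.36 FPKM (adjusted p = 0.00238, limma), and Jam2 rose by 0.52. The Jam2 call was lost without any 1 of 8 libraries (control 0 h replicates 3 and 4, control 6 h replicates 2 and 4, PPA 0 h replicate 4 and each PPA 6 h library). Lsr, a protein of the contacts where several cells meet and the most abundant of this list, had 67.9 ± 3.14 FPKM in control 0 h and 69.3 ± 12.6 in control 6 h and was not called.

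Among 19 tested scaffold and polarity genes, 4 rose and 3 fell in control mice, and 3 rose and 3 fell in PPA mice. Tjp3 (ZO-3), a relative of ZO-1, fell by 0.87 ± 0.13 in control mice (adjusted p = 0.000572, limma) and 0.89 ± 0.13 in PPA mice (adjusted p = 0.000499, limma), from 17.7 to 9.33 FPKM and from 14.1 to 7.14. Prkcz, an atypical protein kinase C of the polarity complex, fell in both arms (-0.62 and -0.73). Amotl2, an angiomotin family scaffold, rose in control mice from 7.84 ± 2.29 FPKM at 0 h to 20.1 ± 2.74 at 6 h (adjusted p = 0.000281, limma), while PPA mice had 10.2 ± 0.929 and 11 ± 1.02 FPKM. Sympk (symplekin) fell in PPA mice (-0.47).

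In the adherens junction, which lies beneath the tight junction, 2 of 11 tested genes rose and 1 fell in control mice, and 3 rose and 2 fell in PPA mice. Cdh1, the epithelial cadherin, went from 1.39 ± 0.0825 to 9.38 ± 2.34 FPKM without PPA (2.1 ± 0.22, adjusted p = 3.63e-05, limma). In PPA mice it went from 3.46 ± 0.721 to 12.2 ± 4.27 FPKM (1.53 ± 0.22, adjusted p = 0.000385, limma). Vcl (vinculin, an actin linker) rose in both arms (0.83 and 0.72), the PPA call being lost without PPA 0 h or PPA 6 h replicate 5 (adjusted p = 0.0521 and 0.0522, limma). Of the nectin genes, Pvrl1 fell in both arms (-0.56 and -0.61) and Pvrl2 in PPA mice (-1.04 ± 0.14, adjusted p = 0.000286, limma), where it went from 63.3 ± 4.73 to 30.6 ± 5.85 FPKM. In control mice Pvrl2 was not called with all libraries and was called without control 6 h replicate 4 (-0.50, adjusted p = 0.0332, limma). Pvrl3 was not called in either arm.

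Of 6 tested desmosome genes, 1 rose (Pkp2) and 1 fell (Dsg2) in control mice, and Pkp2 and Pkp4 rose in PPA mice. Of these calls only that of Pkp2 in PPA mice (0.88 ± 0.19, adjusted p = 0.00495, limma) was kept without each library in turn. Pkp2 in control mice was lost without control 0 h replicate 1 or 4 or control 6 h replicate 2 or 3, Dsg2 without control 0 h replicate 3 or 4 or control 6 h replicate 2 or 4, and Pkp4 without any PPA library. Among 4 tested gap junction genes, 3 rose in control mice and 1 in PPA mice. Gjb2 (connexin 26) rose in both arms, from 84.5 ± 0.633 to 180 ± 9.78 FPKM without PPA (adjusted p = 0.000304, limma) and from 82.3 ± 5.68 to 156 ± 40.7 with it (adjusted p = 0.00119, limma). Gja4 and Gja1, connexins 37 and 43 of vessel and stromal cells, rose in control mice (1.79 and 0.96). Gjb1 (connexin 32), the most abundant junction gene listed, had 549 ± 13.2 FPKM in control 0 h and 528 ± 25.5 in control 6 h and was not called.

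Of 12 tested genes that move or anchor actin at the junction, 3 rose and 1 fell in control mice, and 3 rose and 2 fell in PPA mice. Myh9, the heavy chain of non-muscle myosin, rose by 2.04 ± 0.28 in control mice (adjusted p = 0.000229, limma) and by 1.25 ± 0.28 in PPA mice (adjusted p = 0.00545, limma). Myl12a, a myosin light chain, rose by 1.79 and 1.21 and Rock2, a kinase that activates myosin, by 1.24 and 1.09, all called in both arms. Rdx (radixin), which anchors actin at the canaliculus, fell in both arms (-0.60 and -0.46), and Mylk fell in PPA mice (-0.80). With 1 library left out at a time, including control 6 h replicate 4 with its muscle transcripts, the Myh9 change in control mice was 1.88 to 2.36 and was called each time. Of 9 tested transcription factors of epithelial identity, Snai2, a Snail family repressor, was called, in PPA mice (0.92), and not without PPA 0 h replicate 4 or 5 (adjusted p = 0.05001 and 0.0531, limma). Hnf4a and Cebpa, the most abundant of them, were not called.

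**Figure D4:**
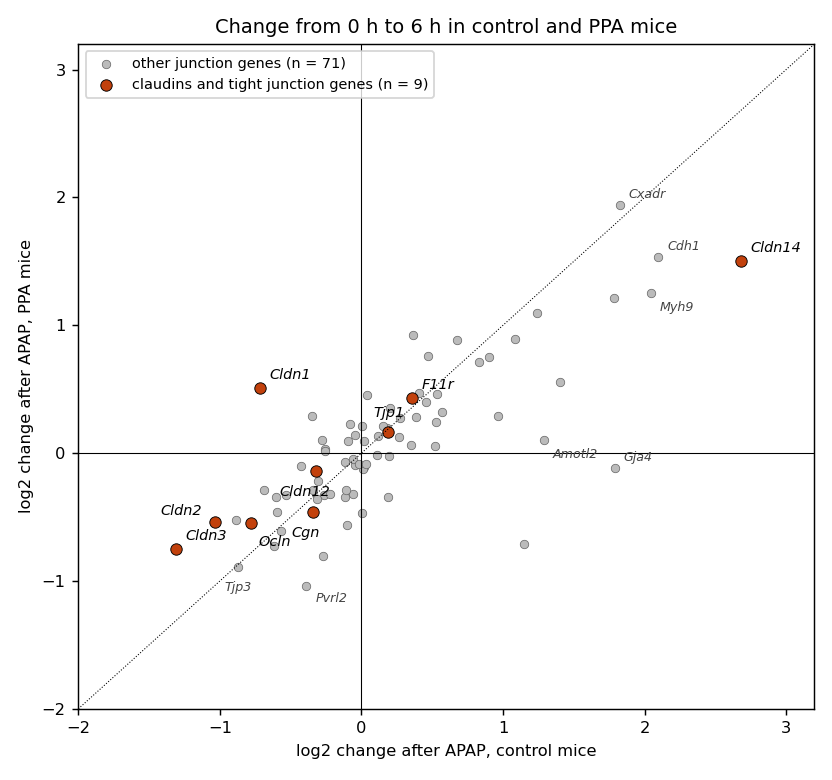
Log2 change from 0 h to 6 h in control mice (x axis) and in PPA mice (y axis), on the log2(FPKM + 1) scale, for the 9 members (red) and 71 other junction genes (grey). The dotted line marks equal change. Cldn14 lies below the line at 2.68 and 1.51, and Cldn1 lies above it at -0.71 and 0.51.

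Markers of other cells were measured beside these values, over all libraries, and their part in the results was not tested. Neutrophil markers rose (3 of 3 tested, in both arms), from at most 2.95 FPKM in summed level at 0 h to 11.3 to 54.0 in control 6 h and 17.0 to 24.4 in PPA 6 h. Within control 6 h, the library with the lowest neutrophil level (replicate 3) also had the lowest Cldn14 and the highest Cldn1 and Cldn2. Pericentral hepatocyte markers fell (6 of 7 tested, in both arms), from 6290 to 7420 FPKM in control 0 h to 2098 to 3563 in control 6 h. In PPA mice they went from 6459 to 6948 FPKM to 1869 to 2337. Within control 6 h, replicate 3 had the lowest pericentral level, 2098 FPKM, against 3563 in replicate 2 and 3027 in replicate 4. By this sum replicate 3 was the farthest of its group from 0 h, unlike by the neutrophil sum. The pericentral sum was led by Cyp2e1, with a mean of 2603 FPKM in control 6 h, then Oat with 164. Glul had 33.6 FPKM there, so the order of the libraries mostly reflects Cyp2e1 and not the whole list. Hepatocyte markers fell in 0 of 8 (control) and 1 of 8 (PPA). Their sum, led by Apoa2 and Apoa1, was 57470.5 to 79202 FPKM in control 0 h and 52309 to 77656 in control 6 h. In PPA mice it was 52834.5 to 59477 FPKM at 0 h and 41220 to 54686 at 6 h. Of 8 periportal hepatocyte markers, which include Cdh1, 3 rose in control mice, and 1 rose and 1 fell in PPA mice. Their sum was 2529 to 3577 FPKM in control 0 h and 3710 to 4454 in control 6 h, and 3473 to 3769 in PPA 0 h and 3259 to 3914 in PPA 6 h. Of 7 Kupffer cell and 8 stellate cell markers, 1 of each list rose in each arm.

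Bile duct cells also make claudins. Of 10 bile duct markers 6 were tested, of which Sox9 rose in both arms (2.38 and 1.84 on the log2 scale). Their summed level was 19.0 to 23.5 FPKM in control 0 h, 24.6 to 57.9 in control 6 h, 20.2 to 23.0 in PPA 0 h and 30.2 to 46.5 in PPA 6 h. Sox9 and Spp1 led this sum. Of the defining markers, Krt19 had 1.25 ± 0.527 FPKM in control 0 h and 1.51 ± 0.957 in control 6 h. In PPA mice it had 2.92 ± 0.625 FPKM at 0 h and 1.81 ± 1.56 at 6 h. Its difference between the arms at 0 h was not called (adjusted p = 0.726, limma). Cftr was near 0 throughout, with at most 0.0622 FPKM in any library. The bile duct claudins Cldn4 and Cldn7 were under the filter on low values.

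Over the 12 libraries, the tested genes whose log2 level was most like that of Cldn1 were Zbtb40 (Pearson r = 0.920), Mrpl50 (0.920), Nup35 (0.918), Dtwd1 (0.914) and Sorbs2 (0.913). They were taken as the highest of 10047 values and the libraries share groups and depth, so r describes likeness only. Dtwd1 had 5.12 ± 0.322 and 3.64 ± 1.33 FPKM in control 0 h and 6 h, and 5.45 ± 0.968 and 6.54 ± 1.45 in PPA 0 h and 6 h. None of the other 8 members was as close to Cldn1: the highest was Cldn12 (0.632), then Cldn2 (0.464), and the lowest was Cldn14 (-0.515).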

How the data were processed

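The deposited values are FPKM, made by the authors, for 24340 gene rows in 12 libraries. RNA came from Trizol extracts by poly(A) selection, and a ThruPLEX kit was used, per the labels' protocols. The submitters' processing notes name HISAT2 2.1.0, Cufflinks, SAMtools 0.1.18-r580, Cuffdiff 2.1.1 and the build mm10. Tool roles, settings, strand use and annotation: not given in the sources used here. Since FPKM depends on the total of a library, a few abundant genes can shift all others. Depth was estimated from the steps of low FPKM values among 5330 genes with RefSeq transcripts of at least 3000 bases. In each library 681 to 854 values were low enough to be used. Of these, 68.2% to 72.4% came within 0.1 of a whole number of fragments. Chance gives 20% at a fixed depth, but the depth was chosen for the best match to whole numbers, so 20% is not a strict comparison.

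Groups come from the sample titles. A gene was tested if its FPKM reached 1 in 3 or more libraries, on log2(FPKM + 1), a scale that understates changes of low genes. Left out were 1285 short RNA rows, and Alb and Apoe, which read 0 in whole groups. This departs from the design as first written. With limma 3.58.1 in R 4.3.3, 1 mean per group was fitted over all 12 libraries, with trended moderation. P-values were adjusted by Benjamini-Hochberg over 10047 genes, and a call means an adjusted p under 0.05. The fit was tested on simulated data. Alternatives changed the pseudocount, filter, scaling, weights, moderation, samples fitted and replicate block.

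Members, lists and contrasts were chosen with earlier results of these data known. Named genes are all members, up to 4 called genes with the smallest p of each list and comparison or the 2 most abundant where none was called, the leading markers, and the 5 genes most like Cldn1. Further markers were named after their values were seen. A few genes that this rule covers are not reported here. Positions are from GENCODE vM21 on GRCm38, promoters from RefSeq on GRCm38.p6. Figures were drawn with matplotlib 3.10.9.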

Additional observations from a re-analysis of the deposited data

Results flagged for a closer look

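The APAP response of Cldn1 in PPA mice minus that in control mice was 1.22 on the log2 scale. It is listed because all 3 control 6 h libraries lay below all 3 control 0 h libraries, while all 3 PPA 6 h libraries lay above all 3 PPA 0 h libraries. The difference was not tested, since the gene was picked for it. The check for a single sample far from its group needs at least 4 samples and was not run on these groups of 3.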

How the results depend on the processing

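Each of 24 alternatives (23 for the difference in change, which cannot be fitted from 2 groups) kept the direction of every member's called change. Cldn1 ranged from -0.95 to -0.54 in control mice, from 0.44 to 0.60 in PPA mice and from 1.05 to 1.46 for their difference. The count of called members after APAP was 3 to 5 in control mice (3 without control 6 h replicate 2) and 3 to 5 in PPA mice when 1 library was left out. Whether the numbers in the titles pair libraries is not known here. Over 9 pairs with the same number, deviations from the group means correlated at -0.282 to 0.0862, which cannot exclude a weak pairing. A replicate block left 3 called members in control mice (without Ocln and F11r) and 2 in PPA mice (without Cgn and F11r). Quantile normalization added Cldn12 and Cgn in control mice and Ocln in PPA mice, and upper-quartile scaling added Cgn in control mice. Sample quality weights, whose estimation did not fully converge and which ran from 0.318 to 6.30, called 3631 genes instead of 14 for PPA at 6 h, 4271 instead of 2702 after APAP in control mice and 519 instead of 1 for the difference in change. Over all tested genes, the count for PPA at 6 h was also 0 when only the groups compared were fitted, 1 with the replicate block, 2 with a pseudocount of 0.1, 5 with no filter and 8 with robust moderation, and that for PPA at 0 h was 1 to 10 instead of 3. Without control 6 h replicate 3, 43 genes were called for the difference in change, and 16 without PPA 6 h replicate 5. With sample quality weights, 3 members (Cldn2, Cldn3 and Cldn14) and 25 other junction genes were called for PPA at 6 h, and 2 members and 8 other genes for the difference in change. For PPA at 6 h, leaving out 1 library gave 0 to 1 members and 0 to 9 other junction genes, with 1 member and 9 others without control 6 h replicate 3. After APAP, 16 to 26 other junction genes were called in control and 15 to 23 in PPA mice without 1 library. Keeping the short RNA rows, Alb and Apoe, an alternative chosen after seeing the data, changed no call of a member. The cause of these shifts was not tested. By the upper estimates from the longest transcripts, Ocln, Cldn14 and Tjp1 rested on the fewest fragments at 0 h.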
